A study of Mus musculus with 5 samples.

Results

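The 9 genes described here are *Fn1*, *Tnc*, *Postn*, *Vcan*, *Npnt*, *Thbs1*, *Thbs2*, *Thbs3* and *Spp1*, which encode fibronectin, tenascin C, periostin, versican, nephronectin, thrombospondins 1 to 3 and osteopontin. They were chosen by name among the 20365 gene names of the SLAMseq tables, and all 9 were found. Where a gene had more than 1 3′ UTR interval, the one whose CPM averaged highest over the labeled libraries was used, so that the labeled reads took part in choosing it. *Postn*, *Npnt*, *Thbs1*, *Thbs2* and *Spp1* had 1 interval each.

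The libraries came from cardiac fibroblasts (CF) of adult healthy male C57Bl/6J wildtype mice, freed from the heart by Langendorff perfusion with collagenase and grown to confluency. In the labeled group (3 libraries), cells took up 0.1 mM 4-thiouridine (S4U) for 12 h, and in the unlabeled group (2 libraries) they were kept in parallel without S4U. All RNA, the unlabeled controls included, was alkylated with iodoacetamide, which makes incorporated S4U read as C in place of T, and was sequenced from the 3′ end. The T>C conversion rate is the fraction of covered T positions read as C, and it rises with the share of a transcript made during the labeling time. The cultures were confluent CF from unstressed hearts and hold no injury condition. The study's CF isolation, described for operated hearts, includes magnetic removal of CD31+ (endothelial) and CD45+ (immune) cells. Its methods speak of 3 CF preparations for SLAMseq but do not match libraries to animals, so p-values measure the spread between these samples.

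Fibronectin and versican are structural components of the extracellular matrix, while tenascin C, periostin, the thrombospondins and osteopontin are matricellular proteins, which bind matrix and cell receptors and tune adhesion and growth factor signaling more than they bear load. Nephronectin is a ligand of the integrin α8β1. Fibronectin is assembled into fibrils by cells through integrins, mainly α5β1, and the fibrils serve as a scaffold for other matrix proteins. In the heart, several of these proteins are low in the resting tissue and are made by fibroblasts during wound healing and fibrosis.

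Reads on 1 interval per gene numbered 506045 to 1576048 in the labeled and 996143 to 1843033 in the unlabeled libraries. Labeled replicate 3 was the shallowest. The deposited CPM divides by a number of reads that exceeds these counted reads by a factor of 7.58 to 28.9, so levels are given as CPM relative to counted reads, which divides by the reads on 1 interval per gene. Reads were counted at the 3′ end and the levels are not divided by transcript length. The rate over all covered T positions was 0.0353 to 0.0358 in the labeled and 0.000652 to 0.00111 in the unlabeled libraries. All 8 fibroblast markers were read in every library. Their summed level was 38175 to 41977 in the labeled and 31052 to 34714 in the unlabeled libraries. Of the 8, 1 (*Col1a1*) was higher and 2 (*Pdgfra* and *Ddr2*) were lower in every labeled library, where 8.2% and 13.1% of all genes tested were, and the other markers overlapped between the groups. In bulk samples, fewer cells of a type and less RNA per cell cannot be told apart.

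The intervals lie in the last exon of each gene, on GRCm39. *Fn1* (ENSMUSG00000026193.17, minus strand) was counted at chr1:71624632-71625370, in the 3′ UTR of exon 46, and 698 of the 739 bases lie within the annotated gene. *Tnc* (ENSMUSG00000028364.17, minus strand) was counted at chr4:63878022-63878669 in exon 26, and *Postn* (ENSMUSG00000027750.18, plus strand) at chr3:54297721-54298462 in exon 21. *Vcan* (ENSMUSG00000021614.18, minus strand) was counted at chr13:89803429-89805349 in exon 15, and *Spp1* (ENSMUSG00000029304.16, plus strand) at chr5:104588485-104588919 in exon 7. *Thbs1* (ENSMUSG00000040152.10, plus strand) was counted at chr2:117955511-117957614 in exon 22, and *Thbs2* (ENSMUSG00000023885.11, minus strand) at chr17:14885762-14887774, also in exon 22. *Thbs3* (ENSMUSG00000028047.13, plus strand) was counted at chr3:89133892-89134148 in exon 23, where *Mtx1* overlaps it on the other strand. *Npnt* (ENSMUSG00000040998.20, minus strand) was counted at chr3:132587506-132590190, of which the last exon 12 of the canonical transcript covers 1392 of 2685 bases, and the lncRNA *Gm65623* lies on the other strand. The strand setting of the counting is not given in the sources used here, so the reads of *Thbs3* and *Npnt* are less certain than the others.

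AU-rich elements in 3′ UTRs are bound by proteins that regulate mRNA decay, and their core can be written TATTTAT in DNA letters. The motif was searched on the transcript strand only, with overlapping copies counted, and every copy also holds the shorter ATTTA. The stretches are shown because they hold every copy found in the 9 intervals. They were read from GRCm39, each is 25 bases long, and the capitals mark TATTTAT.
*Thbs1*, chr2:117956515-117956539, plus strand: atgtaataTATTTATtttgttcccc
*Thbs1*, chr2:117956639-117956663, plus strand: atacagatTATTTATtaaccctgtt
*Thbs1*, chr2:117957590-117957614, plus strand: aatcatatggaagtttaTATTTATa
*Thbs2*, chr17:14887428-14887452, minus strand: acttgcagTATTTATgtgtatatgg
*Thbs2*, chr17:14886726-14886750, minus strand: tttgttaaTATTTATtaaatgattt
*Thbs2*, chr17:14885945-14885969, minus strand: ttgtaaatTATTTATgtagtttttt
*Thbs2*, chr17:14885860-14885884, minus strand: attgtaaaTATTTATttatttgttc
*Thbs2*, chr17:14885856-14885880, minus strand: taaatattTATTTATttgttcattg
*Fn1*, chr1:71624840-71624864, minus strand: ctgtttgtTATTTATcaatttttcc
*Vcan*, chr13:89803543-89803567, minus strand: cttccctgTATTTATattataacat

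*Thbs2* held 5 copies, the last 2 of which overlap, *Thbs1* held 3, and *Fn1* and *Vcan* held 1 each. No TATTTAT was found in the intervals of *Tnc*, *Postn*, *Npnt*, *Thbs3* and *Spp1*. Of all intervals within 20% of its length, 41.2% held at least 1 copy for *Thbs2*, 42.2% for *Thbs1*, 40.1% for *Vcan* and 19.5% for *Fn1*. For the genes without a copy, that share was 18.5% for *Tnc*, 19.5% for *Postn*, 47.7% for *Npnt*, 8.63% for *Thbs3* and 14.0% for *Spp1*. Fewer copies than in *Thbs2* were found in 99.5% of the intervals of like length. The ATTTA pentamer occurred 10 times in *Thbs2*, 9 times in *Vcan*, 6 times in *Thbs1*, 5 times in *Npnt*, 3 times in *Fn1*, 2 times in *Spp1* and once in *Postn*, the copies of *Npnt* counted over the whole interval and not only its last exon. It was not found in *Tnc* and *Thbs3*. Of the intervals of like length, 90.9% held it for *Thbs2*, 90.2% for *Vcan*, 91.6% for *Thbs1* and 94.8% for *Npnt*, with a median of 3 copies for the former 3 and 4 for *Npnt*. The pentamer was held by 63.0% for *Fn1*, 45.5% for *Spp1*, 63.3% for *Postn*, 59.0% for *Tnc* and 32.8% for *Thbs3*. A match describes the letters in these windows and is not a measured site.

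The transcript level of the 9 genes spanned from *Fn1*, at 4620 ± 419 CPM relative to counted reads (SD, n = 3 labeled libraries), to *Thbs3*, at 19.8 ± 8.75. The order of the labeled means was *Fn1*, *Thbs1*, *Postn*, *Thbs2*, *Tnc*, *Vcan*, *Spp1*, *Npnt* and *Thbs3*. The ranges over the labeled libraries overlapped between the neighbours *Thbs2* and *Tnc* and between *Npnt* and *Thbs3*, and for no other neighbours in this order. *Fn1* was higher than 99.9%, *Thbs1* than 99.7% and *Postn* than 98.6% of the 11420 genes read in every labeled library, and *Thbs3* was higher than 37.8%. These levels come from the libraries that also chose the intervals and are a description.

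**Figure D1:**
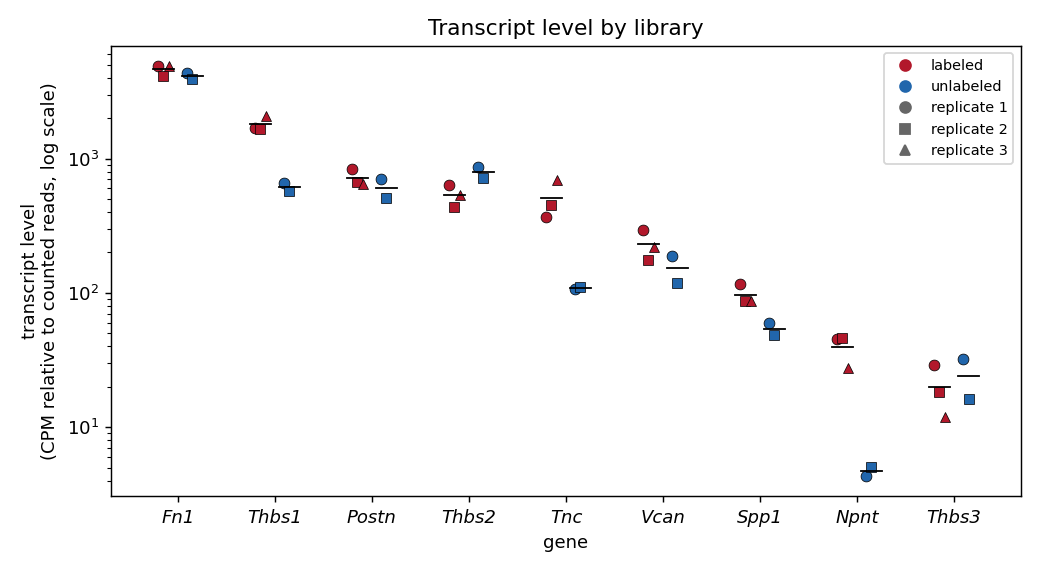
Transcript level (CPM relative to counted reads, log scale) of each gene in every labeled (red) and unlabeled (blue) library, with marker shape for the replicate and a line at the group mean. The labeled libraries of Tnc, Npnt, Thbs1 and Spp1 lie above both unlabeled libraries, and those of Thbs2 lie below both.

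For 8 of the 9 genes, labeled libraries had a higher T>C conversion rate than unlabeled ones (beta-binomial likelihood-ratio test with Benjamini-Hochberg adjustment over all intervals tested, adjusted p from 1.0e-05 to 0.00019). The same call was made for 94.5% of the 19240 intervals tested, so the count is near the background. The order of the mean labeled rates was *Thbs1*, *Tnc*, *Vcan*, *Npnt*, *Spp1*, *Thbs2*, *Postn*, *Fn1* and *Thbs3*. *Tnc*, *Vcan* and *Npnt* had overlapping ranges, as did *Spp1*, *Thbs2* and *Postn* next to one another. *Thbs1* lay above *Tnc*, *Npnt* above *Spp1*, *Postn* above *Fn1* and *Fn1* above *Thbs3* in every labeled library and without overlap of the point values. The *Thbs3* rates rest on 8, 4 and 1 conversions, and their 95% intervals held the *Fn1* rate of the same library. In labeled replicate 3, *Npnt* had 13 conversions (interval 0.0217 to 0.0683), and that interval held the *Spp1* rate of 0.0386. For scale, 2107 genes reached 1000 covered T positions in all 5 libraries, and the labeled rate of these had a median of 0.0388 and quartiles of 0.0343 and 0.0422. Of the 9 genes, 7 were covered as deeply, while *Npnt* and *Thbs3* were not.

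**Figure D2:**
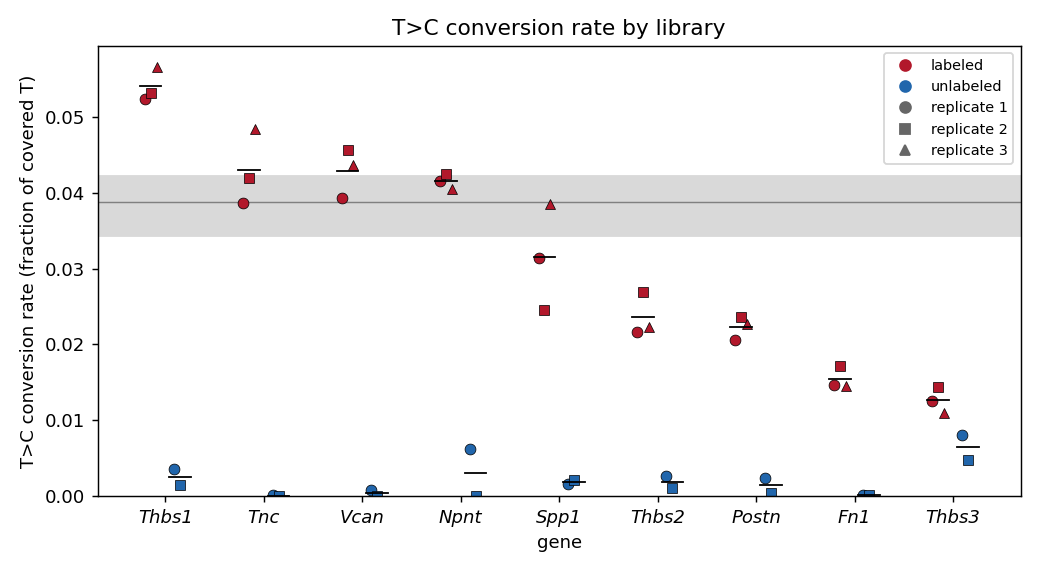
T>C conversion rate (fraction of covered T positions) of each gene in every labeled (red) and unlabeled (blue) library, with marker shape for the replicate and a line at the group mean. The gray band and line mark the quartiles and the median (0.0388) of the labeled rate over 2107 deeply covered genes. Thbs1 lies above the band and Fn1, Postn, Thbs2 and Thbs3 lie below it in every labeled library.

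*Fn1*, the scaffold glycoprotein, was read at 4859, 4136 and 4865 CPM relative to counted reads in labeled replicates 1 to 3 and at 4355 and 3887 in unlabeled replicates 1 and 2. In the deposited CPM, which carry the larger base, the same libraries read 641, 351 and 168, and 554 and 353. The groups overlapped. The log2 fold change of reads, labeled against unlabeled, was 0.24 ± 0.23 (standard error, edgeR's quasi-likelihood test, Benjamini-Hochberg adjusted p = 1.00). In *Fn1*, the T>C rate was 0.0146, 0.0172 and 0.0145 in the labeled libraries, from 58704 to 165074 covered T positions, and 0.000164 and 0.000176 in the unlabeled libraries. Of the deeply covered genes, 4.70% had a lower labeled rate. Reads with at least 1 conversion made up 20.4%, 24.1% and 20.1% of the labeled *Fn1* reads. *Fn1* thus combined the highest level of the 9 with a rate below the lower quartile of the deeply covered genes in every labeled library.

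*Vcan*, a large chondroitin sulfate proteoglycan that binds hyaluronan, was read at 294, 176 and 219 CPM relative to counted reads in the labeled and at 189 and 119 in the unlabeled libraries. Labeled replicate 2 lay between the 2 unlabeled libraries, so the groups overlapped. The log2 fold change was 0.65 ± 0.32 (edgeR's quasi-likelihood test, Benjamini-Hochberg adjusted p = 0.904). Its T>C rate was 0.0393, 0.0457 and 0.0437 in the labeled libraries and 0.000825 in unlabeled replicate 1. No conversion was found among 2716 covered T positions in unlabeled replicate 2, which allows a rate of up to 0.00110. Limits and intervals cover counting error only. The share of reads with a conversion was 50.9%, 61.4% and 61.3%.

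*Postn*, a secreted matricellular protein that binds collagen and integrins and marks activated fibroblasts, was read at 844, 672 and 650 CPM relative to counted reads in the labeled and at 702 and 509 in the unlabeled libraries. The groups overlapped, and the log2 fold change was 0.34 ± 0.25 (edgeR's quasi-likelihood test, Benjamini-Hochberg adjusted p = 0.999). *Postn* had a T>C rate of 0.0207, 0.0237 and 0.0227 in the labeled libraries. The rate was 0.00241 in unlabeled replicate 1 and 0.000463 in unlabeled replicate 2, so that the unlabeled libraries differed more from one another than the labeled ones did in proportion. Reads with a conversion made up 29.2%, 31.9% and 27.1% of the labeled reads, against 5.41% and 1.18% of the unlabeled reads. Of the deeply covered genes, 9.21% had a lower labeled rate than *Postn*.

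*Tnc*, a hexameric glycoprotein that counters cell adhesion to fibronectin, was read at 369, 455 and 694 CPM relative to counted reads in the labeled and at 107 and 111 in the unlabeled libraries. Every labeled library lay above both unlabeled libraries, and labeled replicate 3, the shallowest library, was the highest. The log2 fold change was 2.29 ± 0.37, larger than that of 99.8% of the genes tested. In edgeR's quasi-likelihood test the Benjamini-Hochberg adjusted p was 0.433 (unadjusted p = 0.000434), and in DESeq2 the adjusted p was 0.000165. *Tnc* had a T>C rate of 0.0386, 0.0419 and 0.0484 in the labeled libraries, 0.000167 in unlabeled replicate 1, and 0 of 3266 covered T positions in unlabeled replicate 2, which allows a rate of up to 0.000919. Of the deeply covered genes, 79.7% had a lower labeled rate than *Tnc*. The share of reads with a conversion was 63.9%, 68.0% and 73.5%, and 97.2% of these genes had a lower share. A *Tnc* read covered 30.1, 30.5 and 31.7 T positions in the labeled libraries, more than in 98.7% of these genes.

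*Npnt* was read at 45.0, 46.0 and 27.7 CPM relative to counted reads in the labeled and at 4.34 and 5.02 in the unlabeled libraries. These values rest on 71, 55 and 14 reads and on 8 and 5 reads. Every labeled library lay above both unlabeled ones, with no unlabeled library above 8 reads. *Npnt* passed the filter on low counts only through the labeled libraries, where it is high, so its values are a description. The log2 fold change was 3.17 ± 0.43 (edgeR's quasi-likelihood test, Benjamini-Hochberg adjusted p = 0.433, unadjusted p = 0.000144, and DESeq2 adjusted p = 0.00230). Its T>C rate was 0.0415, 0.0425 and 0.0405 in the labeled libraries. In the unlabeled libraries, 1 conversion was counted among 160 covered T positions and 0 among 145, which for the latter allows a rate of up to 0.0207.

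The labeled ranges of the 3 thrombospondin genes did not overlap in level or in T>C rate. Thrombospondin 1 and 2 form trimers that bind CD36 and CD47 and inhibit angiogenesis, thrombospondin 1 activates latent TGF-β, and thrombospondin 3 belongs to the pentameric members of the family. *Thbs1* was read at 1700, 1674 and 2063 CPM relative to counted reads in the labeled and at 657 and 576 in the unlabeled libraries. Every labeled library exceeded both unlabeled ones. Its log2 fold change was 1.64 ± 0.26, larger than that of 99.3% of the genes tested (edgeR's quasi-likelihood test, Benjamini-Hochberg adjusted p = 0.433, unadjusted p = 0.000395, and DESeq2 adjusted p = 0.00211).

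*Thbs2* was read at 640, 437 and 538 CPM relative to counted reads in the labeled and at 870 and 714 in the unlabeled libraries. It was the only one of the 9 genes with every labeled library below both unlabeled libraries. The log2 fold change was -0.48 ± 0.26 (edgeR's quasi-likelihood test, Benjamini-Hochberg adjusted p = 0.936, unadjusted p = 0.105). *Thbs3* was read at 29.2, 18.4 and 11.9 in the labeled and at 32.0 and 16.1 in the unlabeled libraries, on 6 to 59 reads per library, and the groups overlapped. In the unlabeled libraries *Thbs2* was the higher of *Thbs1* and *Thbs2*, and in all 3 labeled libraries *Thbs1* was the higher.

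The T>C rate of *Thbs1* was 0.0524, 0.0531 and 0.0565 in the labeled libraries, from 32360 to 53911 covered T positions, and 0.00360 and 0.00142 in the unlabeled libraries. Of the deeply covered genes, 99.8% had a lower labeled rate. The rate of *Thbs2* was 0.0217, 0.0269 and 0.0223 in the labeled and 0.00269 and 0.00113 in the unlabeled libraries. In every labeled library *Thbs1* lay above *Thbs2*. The rate of *Thbs3* was 0.0126, 0.0144 and 0.0110 in the labeled and 0.00808 and 0.00478 in the unlabeled libraries, from 8, 4 and 1 conversions and from 7 and 1. With 91 covered T positions in labeled replicate 3, its 95% Clopper-Pearson interval ran from 0.000278 to 0.0597, and the beta-binomial test did not call *Thbs3* (adjusted p = 0.213). With limma on the log odds the adjusted p of *Thbs3* was 0.0454. The median unlabeled rate of the deeply covered genes was 0.000510, and both unlabeled rates of *Thbs1*, *Thbs2*, *Spp1* and *Thbs3* lay above it. In unlabeled replicate 2, the intervals of *Spp1* (3 conversions, 0.000436 to 0.00617) and of *Thbs3* (1 conversion, 0.000121 to 0.0264) reached below that median.

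*Spp1*, osteopontin, a phosphorylated integrin and CD44 ligand that macrophages also secrete, was read at 116, 87.0 and 86.9 CPM relative to counted reads in the labeled and at 59.7 and 48.2 in the unlabeled libraries. Every labeled library lay above both unlabeled ones, and the log2 fold change was 0.92 ± 0.28 (edgeR's quasi-likelihood test, Benjamini-Hochberg adjusted p = 0.704, unadjusted p = 0.0131, and DESeq2 adjusted p = 1.00). Its T>C rate was 0.0314, 0.0245 and 0.0386 in the labeled and 0.00167 and 0.00211 in the unlabeled libraries, and its spread between labeled libraries was the widest of the 9 genes (SD 0.00703). All 12 macrophage markers were read in at least 1 library, and their summed level was 127 to 203 CPM relative to counted reads in the labeled and 137 to 227 in the unlabeled libraries. These sums overlapped between the groups, and single markers lay in either direction, with *Csf1r* at 9.52, 19.2 and 15.8 against 2.17 and 12.0 and *Mrc1* at 4.44, 1.67 and 1.98 against 18.4 and 7.03. The median log2 fold change of the 9 macrophage markers tested was 0.02. The part of macrophages in the *Spp1* reads was not tested.

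**Figure D3:**
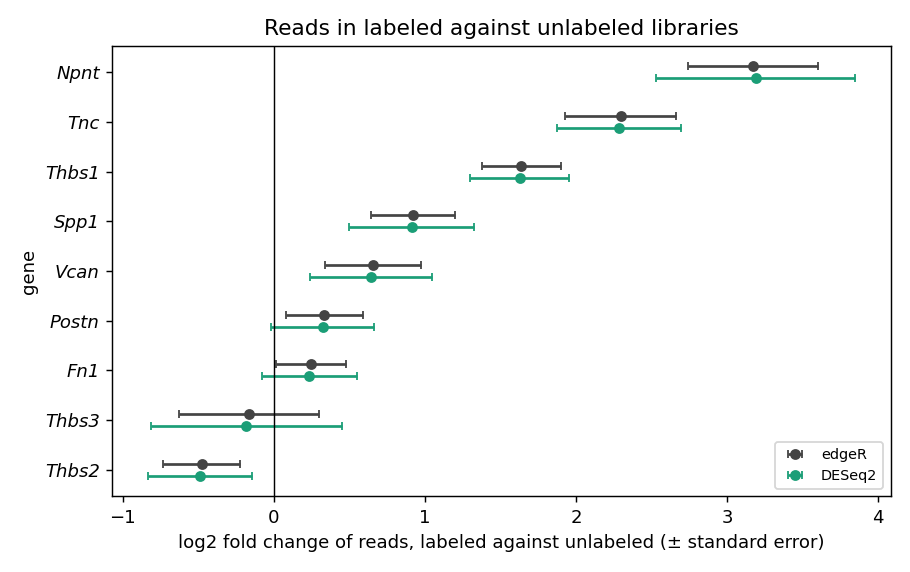
Log2 fold change of reads, labeled against unlabeled libraries (± standard error), from edgeR (gray) and DESeq2 (green) for each gene. Npnt (3.17), Tnc (2.29) and Thbs1 (1.64) lie farthest above 0, and Thbs2 (-0.48) lies farthest below.

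Across the 9 genes, edgeR's quasi-likelihood test called no change of reads at an adjusted p below 0.05, and it called 0% of the 9807 genes tested. At an unadjusted p below 0.05, 4 of the 9 genes were higher and 0 were lower, against 2.84% and 3.12% of all genes tested. DESeq2 called 3 of the 9 genes higher, *Tnc*, *Npnt* and *Thbs1*, against 0.0826% of the 12113 genes it tested, and 0 lower, against 0.033%. *Npnt* is in these counts and in those that follow, although its 8 and 5 unlabeled reads let it pass a filter on low counts only through the labeled libraries. Every labeled library lay above both unlabeled libraries for 4 of the 9, *Tnc*, *Npnt*, *Thbs1* and *Spp1*, against 8.2% of all genes tested, and below both for 1, *Thbs2*, against 13.1%. These counts depend on the scale. In the deposited CPM, *Tnc* and *Npnt* alone lay above both unlabeled libraries (2 of the 9, against 0.398% of all genes tested), none lay below both (0, against 12.1%), and *Thbs1* (224, 142 and 71.4 against 83.5 and 52.3), *Spp1* and *Thbs2* overlapped between the groups. The median log2 fold change was 0.65 over the 9 genes and 0.02 over all genes tested. With the replicate number as a block, a number that the labels tie to no preparation, edgeR called 5 of the 9 higher (*Npnt*, *Tnc*, *Thbs1*, *Spp1* and *Vcan*) and 1 lower (*Thbs2*), against 5.38% and 6.3% of all genes tested. That fit left 1 residual degree of freedom. The 9 genes were chosen with earlier results known, and these counts describe them.

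Markers of other cells and states were summed in each library. The summed level of the 4 myofibroblast markers *Acta2*, *Tagln*, *Cnn1* and *Myl9* was 1128, 2163 and 2612 CPM relative to counted reads in the labeled and 657 and 1097 in the unlabeled libraries. Labeled replicate 1 and unlabeled replicate 2 lay close together in this sum. Of the 4 markers, 2 were higher in every labeled library in CPM relative to counted reads, beside 8.2% of all genes tested. These were *Tagln* and *Cnn1*, and *Cnn1*, with 11 and 6 unlabeled reads, passed the filter on low counts only through the labeled libraries. *Acta2* (539, 1411 and 1618 against 353 and 740) and *Myl9* (107, 224 and 198 against 134 and 141) overlapped between the groups. With the replicate block, edgeR called 2 of the 4 higher, *Acta2* (log2 fold change 0.82) and *Tagln* (1.46), and 0 lower. That block called 5.38% of all genes tested higher and 6.3% lower. In CPM relative to counted reads, *Tnc*, *Npnt*, *Thbs1* and *Spp1* were also higher in every labeled library, and the part of these markers in them was not tested. Of the marker genes, *Tagln* was called by DESeq2 (log2 fold change 1.73 from edgeR, DESeq2 adjusted p = 0.0156), which called 0.0826% of all genes it tested higher. In edgeR's quasi-likelihood test without the block, *Tagln* was not called (Benjamini-Hochberg adjusted p = 0.531, unadjusted p = 0.00165). The summed epicardial markers were 3.81 to 7.90 in the labeled and 1.63 to 3.01 in the unlabeled libraries, with *Msln* and *Krt19* at 0 in every library, and these sums rest on 6, 6 and 4 reads against 3 and 3, too few to test any of the 6 markers with edgeR. Summed endothelial markers (126 to 238 against 154 to 241), mural markers (23.5 to 75.1 against 31.5 to 86.3) and cardiomyocyte markers (1.90 to 7.53 against 2.17 to 8.03, *Myl2* and *Ryr2* at 0) overlapped between the groups.

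The share of converted reads and the number of conversions on such a read separated the genes further. In the labeled libraries, 57.6%, 69.7% and 75.5% of the *Thbs1* reads held a conversion, and the conversions per converted read were 1.82, 2.06 and 2.32. Of the deeply covered genes, 99.7% had fewer conversions per converted read than *Thbs1*, and 98.4% had fewer than *Tnc*, which had 1.82, 1.88 and 2.09. A *Thbs1* read covered 20.0, 27.0 and 31.0 T positions in labeled replicates 1 to 3, where the median over the deeply covered genes was 19.9, 22.4 and 22.7. More T positions per read than in 86.4% of these genes were covered for *Thbs1* and, as given above, than in 98.7% for *Tnc*. The part of the T positions per read in the conversions per read was not tested.

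In *Postn*, a lower share of converted reads was found in 10.3% of the deeply covered genes, and fewer conversions per converted read in 92.6%. Its conversions per converted read were 1.55, 1.81 and 2.04 in labeled replicates 1 to 3, where the median of these genes was 1.52, 1.60 and 1.61. Replicate 1, with the most converted *Postn* reads (388), lay near the median, and replicate 3, with the fewest (89), lay farthest above it. *Thbs2*, with a like share of converted reads (10.8% of the deeply covered genes had a lower one), had 1.50, 1.67 and 1.58 conversions per converted read, and 50.6% of the genes had fewer. In the unlabeled libraries the tables hold more converted reads than conversions for *Thbs2* (106 against 83 and 28 against 18), and how far this bears on its labeled share and ratio was not tested. *Fn1* had 1.55, 1.65 and 1.72.

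**Figure D4:**
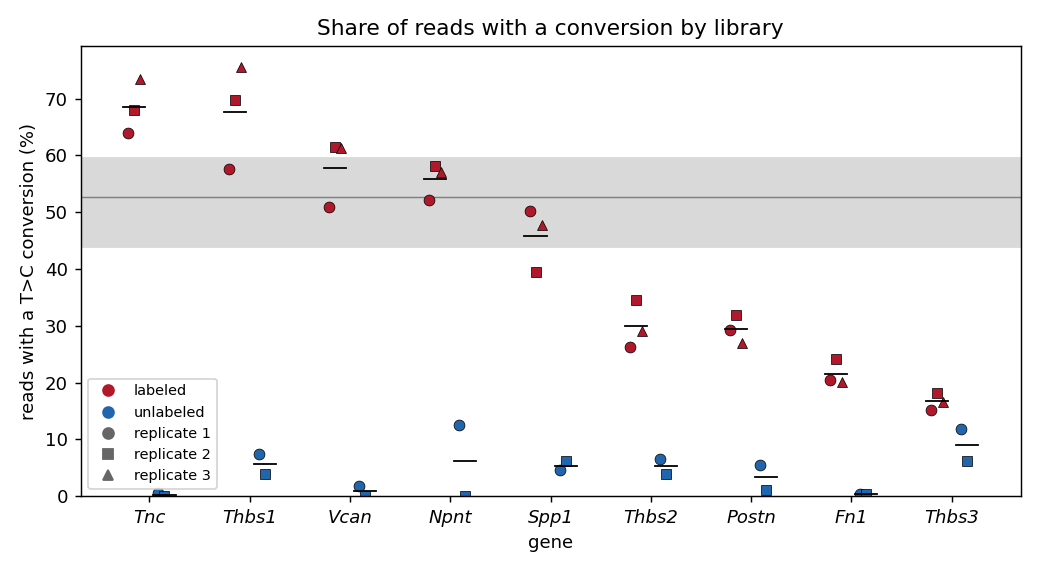
Share of reads with at least 1 T>C conversion (%) of each gene in every labeled (red) and unlabeled (blue) library, with marker shape for the replicate and a line at the group mean. The gray band and line mark the quartiles (43.9% and 59.5%) and the median (52.7%) of the labeled share over 2107 deeply covered genes. Tnc and Thbs1 have the highest mean shares and Fn1 and Thbs3 the lowest.

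Level and T>C rate did not follow one order. *Fn1* and *Thbs1* were the members with the highest levels, and *Thbs1* had the highest rate of the 9 while only *Thbs3* had a lower rate than *Fn1*. By the distance over the log2 level and log2 T>C rate in the 3 labeled libraries, among 2106 deeply covered genes, the genes nearest to *Fn1* were *Igfbp7* (distance 0.52), *Dcn* (0.84) and *Bgn* (1.27). The nearest to *Thbs1* were *Emp1* (0.15), *Ldha* (0.69) and *Cald1* (0.79). *Emp1* had a mean labeled level of 1767 CPM relative to counted reads and a rate of 0.0520, against 1812 and 0.0540 for *Thbs1*.

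**Figure D5:**
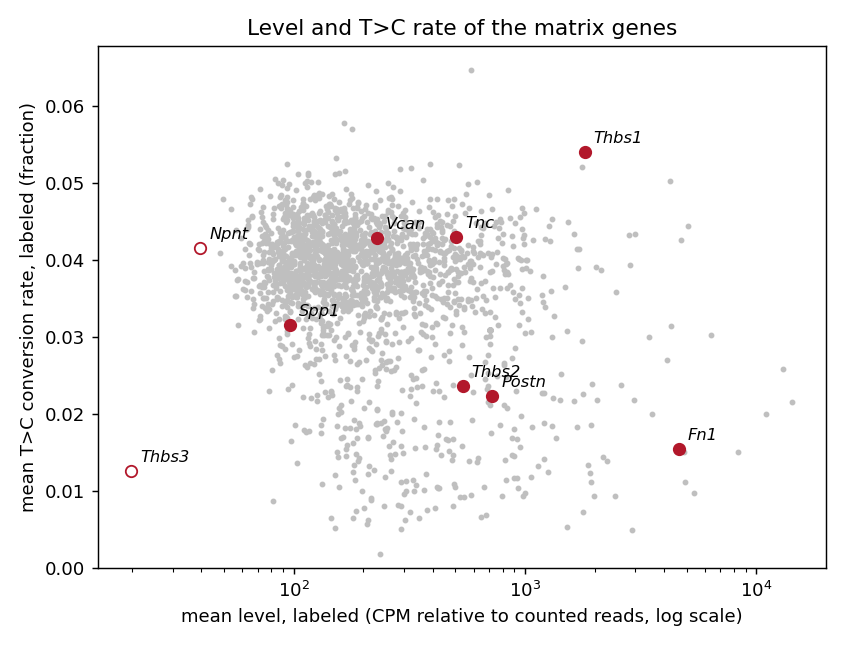
Mean labeled T>C conversion rate (fraction) against mean labeled level (CPM relative to counted reads, log scale) of the 9 genes (red) and of the deeply covered genes (gray points). Open circles mark Npnt and Thbs3, which had fewer than 1000 covered T positions in a library. Fn1 lies at high level and low rate and Thbs1 at high level and high rate.

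Genes related to the 9 were read from lists. Of 20 matricellular relatives, 8 were read deeply enough to test, 8 were at 0 in every library (among them *Tnn* and *Ibsp*), and the highest were *Sparc* at 14329 ± 3654, *Ccn2* at 2989 ± 359 and *Ccn1* at 645 ± 372 CPM relative to counted reads (SD, n = 3). Labeled libraries had the higher T>C rate for 8 of these 8, a call made for 94.5% of all intervals, and their median labeled rate was 0.0348. For reads, edgeR's quasi-likelihood test called 0 of the 8 after Benjamini-Hochberg adjustment, with 2 higher (*Ccn2*, 1.06, and *Ccn4*, 1.20) and 1 lower (*Ccn3*, -1.07) at an unadjusted p below 0.05 on the log2 scale (2.84% and 3.12% of all genes), and DESeq2 called 0. With the replicate block, edgeR called 3 higher (*Ccn1*, *Ccn2* and *Ccn4*) and 1 lower (*Ccn3*), against 5.38% and 6.3% of all genes. The median log2 fold change was 0.45.

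Of 19 integrin subunits and other receptors of the 9 proteins, 17 were tested for reads. The highest were *Itgb1*, the β1 chain shared by the fibronectin and nephronectin receptors, at 696 ± 132, the thrombospondin receptor *Lrp1* at 685 ± 190 and *Itgb5* at 585 ± 167 CPM relative to counted reads (SD, n = 3). The T>C rate was higher in the labeled libraries for 18 of 18, beside 94.5% of all intervals. Of the reads, edgeR and DESeq2 called 0, and at an unadjusted p below 0.05 in edgeR 2 were higher, *Cd44* (log2 fold change 0.90), a receptor of osteopontin and hyaluronan, and *Sdc4* (0.84), a fibronectin coreceptor, and 0 were lower, beside 2.84% and 3.12% of all genes. With the replicate block, edgeR called 5 higher and 1 lower, beside 5.38% and 6.3% of all genes. The higher ones were *Itgb1*, *Itgb5*, *Cd44*, *Sdc1* and *Sdc4*. The lower one was *Itga8*, the α8 chain (log2 fold change -1.13), on 24, 6 and 2 labeled against 54 and 18 unlabeled reads. *Itga8* passed the filter on low counts only through the unlabeled libraries, where it is high. The median log2 fold change was 0.14.

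Of 11 hyaluronan partners of versican and proteases that cleave it, 6 were tested for reads, and *Has1*, *Has3*, *Hapln1* and *Hapln3* were at 0 in every library. The highest were the versican-cleaving proteases *Adamts5* at 1697 ± 303, *Adamts1* at 246 ± 42.9 and *Adamts4* at 79.3 ± 34.6 CPM relative to counted reads (SD, n = 3). For 6 of 6, beside 94.5% of all intervals, the T>C rate was higher in the labeled libraries. Of the reads, edgeR and DESeq2 called 0, and at an unadjusted p below 0.05 in edgeR 0 were higher and 2 were lower, *Adamts1* (log2 fold change -0.64) and *Adamts15* (-2.03, passing the filter on low counts only through the unlabeled libraries, where it is high), beside 2.84% and 3.12% of all genes. With the replicate block, edgeR called 0 higher and 2 lower (*Adamts1* and *Adamts15*), beside 5.38% and 6.3% of all genes. The median was -0.53, where that of all genes tested was 0.02.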

How the data were processed

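Libraries were prepared from the 3′ end of alkylated RNA with unique molecular identifiers. The authors ran SLAM-DUNK 0.4.3 against mm39 (from the submitters' processing notes) and removed duplicates. The authors deposited, for each 3′ UTR interval and library, unnormalized counts (reads, converted reads, covered T positions, conversions), a conversion rate as a fraction and a CPM on a base larger than the counted reads. Each table has 97442 lines, which hold 40428 distinct intervals, and each was kept 1 time. On reference chromosomes, 40380 of 40380 intervals had the T content of GRCm39.

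For rates, a two-sided beta-binomial likelihood-ratio test was used (1 overdispersion for both groups, chi-square with 1 degree of freedom), on intervals where each library covered at least 1 T. For reads, edgeR's quasi-likelihood test (TMM, filterByExpr) was run on the counts of 1 interval per gene. p-values were adjusted by Benjamini-Hochberg over all intervals or genes, and calls were made below 0.05. Both tests were tried on simulated data, but no outcome is given here, so no result rests on that trial. The alternatives were DESeq2, limma on the log odds (pseudocount 0.5), RLE size factors, no filter on low counts, other intervals and summed reads. Also run were a minimum of 1000 covered T positions, the share of converted reads, deposited CPM and rates minus the unlabeled mean. A replicate block was fitted, and each library was left out in turn. The 9 genes, the gene lists and the rule that names all 9 and, of each pathway list, the 3 highest genes and any called in a test of reads were set with earlier results of these data known. Genes named at an unadjusted p, the markers, *Gm65623*, *Mtx1* and the named list genes at 0 fall outside the rule. Intervals on shares are 95% Clopper-Pearson intervals, and a 0 is limited by 3 counts. The tests ran in edgeR 4.0.16, DESeq2 1.42.0 and limma 3.58.1 under R 4.3.3, and in scipy 1.17.1, numba 0.67.0, pandas 2.3.3 and numpy 2.4.6 under Python 3.11.15. Figures were drawn with matplotlib 3.10.9.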

Additional observations from a re-analysis of the deposited data

How the results depend on the processing

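The count of genes with a raised T>C rate was 8 of 9 by the beta-binomial test and 8 without each library in turn, 9 with limma on the log odds and 8 with limma and a replicate block. With a minimum of 1000 covered T positions per library it was 7 of 7. The beta-binomial test made that call for 94.5% of all intervals tested. For reads, edgeR's quasi-likelihood test called 0 of 9 and also 0 without each library in turn, with RLE size factors, without a filter on low counts, with summed reads and with the interval that has the most unlabeled reads. DESeq2 called 3, all higher, against 0.0826% of all genes it tested higher and 0.033% lower. With a replicate block, edgeR called 6, with *Thbs2* lower (log2 fold change -0.52), against 5.38% of all genes tested higher and 6.3% lower. Both counts hold *Npnt*, whose few unlabeled reads let it pass a filter on low counts only through the labeled libraries. No label ties a replicate number to a preparation. Over all genes, deviations from the group means correlated at 0.784 for replicates 1, at 0.638 for replicates 2 and at 0.482 for labeled replicate 3 with unlabeled replicate 2. With 2 unlabeled libraries their deviations mirror one another, so these values are not independent of one another and leave a pairing undecided. In the deposited CPM, a comparison added after the data were seen, 2 of the 9 genes in place of 4 lay above both unlabeled libraries in every labeled library, and 0 in place of 1 below. Of all genes tested, 0.398% in place of 8.2% lay above, and 12.1% in place of 13.1% below. The reads of *Thbs3* (log2 fold change -0.16) turned to 0.037 with the replicate block and ran from -0.54 without labeled replicate 1 to 0.38 without unlabeled replicate 1, with 0.04 without labeled replicate 3, and the cause was not tested. Depth limits *Thbs3* and *Npnt*, and the unlabeled libraries, which number 2, limit every spread of the control.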

Other observations

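As for *Thbs2*, the unlabeled libraries hold more reads with a conversion than conversions for *Thbs1*, with 90 reads against 89 conversions in replicate 1 and 22 against 21 in replicate 2.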
